A study of Mus musculus with 38 samples.

Results

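Genome contacts of lamin B1 were compared between naive and primed pluripotency in wild-type (WT) mouse embryonic stem (mES) cells. The members are the 6 lamin B1 (LMNB1) CUT&RUN libraries of WT cells, out of 38 samples in the series, taken by their labels: 3 of naive mES cells and 3 of epiblast-like cells (EpiLCs). They were read over 78202 annotated genes, of which 70381 passed a filter on low values and were tested, and over 1225 families of transposable elements (TEs) with 3793386 genomic copies, of which 1102 families were tested. CUT&RUN tethers a nuclease to an antibody, releases the DNA beside the bound protein and sequences it. The study used these libraries to follow LADs, the lamina-bound parts of the genome, in WT cells that leave naive pluripotency, beside H3K9me2, a mark of heterochromatin. Its knockout cells were not compared here, but their LAP2B libraries entered the mean value by which low genes were filtered out.

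Naive WT mES cells were kept in serum-free 2i + LIF medium, in which inhibitors of MEK and GSK3 and the cytokine LIF hold cells in the state of the inner cell mass. WT EpiLCs came from the same line after 48 h in N2B27 medium with 20 ng/mL FGF and 12 ng/mL activin A, which moves cells towards the post-implantation epiblast. Each replicate held 200000 cells. The signal is an average over those cells, so fewer cells with a contact and a weaker contact in every cell cannot be told apart. The line is 1 WT line, and the study's methods describe a partly abnormal karyotype with subpopulations that lost the Y chromosome or carried extra copies of chromosomes 6 and 8. Nothing in the labels says that the 3 replicates of a stage were separate cultures, so p-values measure the spread between these libraries, which may be technical. The stage labels were not checked here against marker expression, since these libraries measure chromatin contacts and not RNA.

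The nuclear lamina is a mesh of lamin filaments under the inner nuclear membrane. Lamin B1 is one of its permanently farnesylated, membrane-bound components, and the chromatin it touches, the lamina-associated domains (LADs), is mostly gene-poor, AT-rich, late replicating and weakly transcribed, often with H3K9me2. LAP2B, a product of the Tmpo gene, is an inner nuclear membrane protein that binds lamin B and chromatin, so its CUT&RUN libraries from the same cells give a measure of the periphery that shares no library with lamin B1. It is not a measure of LADs alone: the study's text describes LAP2B signal both inside and outside LADs in WT EpiLCs.

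The lamin B1 libraries held 29522895 to 37189077 reads over genes, with 76 to 90 reads on the median gene. The secondary-antibody (IGG) controls, run beside LAP2B and not beside lamin B1, held 12028659 to 45689196, and the LAP2B libraries 18713692 to 29685076. Across genes of at least 10 kb, Spearman's rho between lamin B1 libraries of the same stage was 0.889 to 0.955 (6 pairs) and between stages 0.807 to 0.906 (9 pairs). Naive library 1 had the steepest profile of the 3 naive libraries. Levels are given per kb and relative, with the median gene over the 6 libraries set to 1, and changes as log2 of EpiLC over naive, each library first divided by its own median gene. On the spike-in scale the median gene rose by 0.22 (log2) in place of -0.05, so a change on the relative scale is a change against the rest of the genome.

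Lamin B1 contacts were more evenly spread over genes in EpiLCs than in naive cells when genes were ordered by their naive LAP2B level. The study, which followed domains in these WT cells, describes lamin B1 contacts as mostly unchanged from naive cells to EpiLCs. Domain calls are another measure than the relative levels per gene used here. The lamina contrast, the log2 ratio of mean lamin B1 per kb in the quartile of genes with most LAP2B to that in the quartile with least, was 2.29, 1.80 and 1.86 in the naive libraries (1.99 ± 0.27, SD, n = 3). In EpiLCs it was 1.09, 1.47 and 1.24 (1.27 ± 0.19, n = 3). All EpiLC libraries lay below all naive libraries, a difference of -0.72 (two-sided exact permutation test, p = 0.1, the smallest that 3 against 3 allows). With the quartiles taken from EpiLC LAP2B instead, which is signal not limited to LADs, the contrast was 1.26, 1.25 and 1.17 in naive cells. It was 1.00, 1.11 and 1.15 in EpiLCs, a change of -0.14 (exact permutation p = 0.1). The libraries again did not overlap, but the difference was smaller, and 43.6% of genes stood in the same quartile at both stages. The IGG contrast went from 0.38 to 0.05 with the naive quartiles (difference -0.33, exact permutation p = 0.1) and from 0.75 to 0.76 with the EpiLC quartiles. On the spike-in scale the mean IGG value over genes was 2.32 ± 0.48 in naive cells and 4.91 ± 2.71 in EpiLCs (SD, n = 3). The part of this background signal in the lamin B1 difference was not tested. How far lamin B1 stood above it in the quartile with least LAP2B was not measured.

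**Figure D1:**
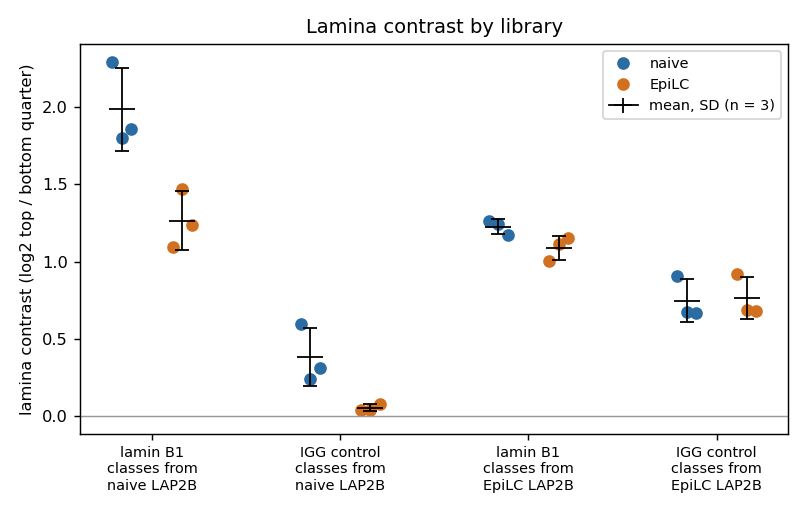
Lamina contrast (log2 ratio of mean level per kb, top over bottom quartile of genes by LAP2B) in each library of lamin B1 and of the IGG control, with quartiles taken from naive or from EpiLC LAP2B; points are libraries, bars the mean and SD (n = 3). Naive lamin B1 libraries lie at 1.80 to 2.29 and EpiLC libraries at 1.09 to 1.47 with naive quartiles, and the gap narrows to -0.14 with EpiLC quartiles.

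The change was graded along the order of genes by naive LAP2B, and much less so along their order by EpiLC LAP2B. In the decile of genes with least naive LAP2B, the median lamin B1 level per kb was 0.382, 0.448 and 0.449 in the naive libraries and 0.616, 0.537 and 0.569 in the EpiLC libraries. In the decile with most LAP2B it was 2.81, 2.23 and 2.36 in naive cells and 1.67, 1.97 and 1.78 in EpiLCs. Libraries of the stages did not overlap in the 4 lowest and the 5 highest deciles, and they crossed in decile 5. The median change per gene ran from 0.33 and 0.37 in the first and second decile to -0.31 and -0.41 in deciles 9 and 10, against -0.05 over all genes. The median IGG change ran the same way over a smaller range, from 0.12 in decile 2 to -0.23 in decile 10. With genes ordered by EpiLC LAP2B the lamin B1 medians ran from 0.08 in decile 2 to -0.13 in decile 10. Decile 1 went against that order, with a median of -0.06 and 262 genes higher and 437 lower. By the mean of both stages the medians were 0.15 in decile 1, 0.28 in decile 2 and -0.34 in decile 10. On the spike-in scale the median change was positive in 8 of 10 deciles, and it fell only in decile 9, by 0.04, and in decile 10, by 0.13. The order of genes by lamin B1 itself was largely kept: of the 6642 genes of at least 10 kb in the top quartile in naive cells, 82.9% were in the top quartile in EpiLCs.

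**Figure D2:**
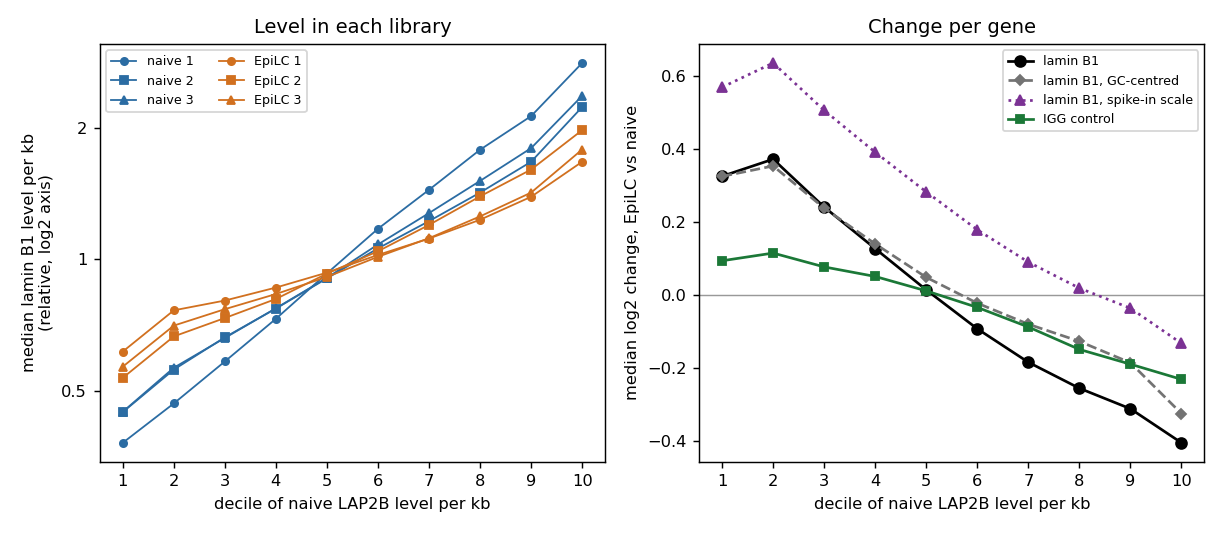
Left, the median lamin B1 level per kb (relative, log2 axis) of genes in each decile of naive LAP2B, 1 line per library; the naive lines are steeper and all lines meet in decile 5. Right, the median log2 change per gene in the same deciles for lamin B1, for lamin B1 centred by GC content, for lamin B1 on the spike-in scale and for the IGG control; lamin B1 goes from 0.37 in decile 2 to -0.41 in decile 10, the IGG control from 0.12 to -0.23.

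Gene by gene, lamin B1 rose at 4322 genes and fell at 5251 of 70381 tested (limma, Benjamini-Hochberg adjusted p under 0.05; 13.6% called, 6.14% higher and 7.46% lower). An unadjusted p under 0.05 was reached by 21278 genes. The libraries of the stages did not overlap at 32.4% of genes, 14.9% with EpiLCs higher and 17.5% lower. The split depended on the scale: relative to the spike-in, 5613 genes rose (7.98%) and 173 fell (0.246%; 8.22% called), and relative to each library's mean, 7011 rose (9.96%) and 2469 fell (3.51%). No called gene changed direction on the spike-in scale. Leaving out EpiLC library 1 left 1813 calls and leaving out EpiLC library 3 left 3000, while there were 5686 calls without naive library 1, 5699 without naive library 3 and 14141 without naive library 2. With the replicate number as a block, 2860 genes rose and 2954 fell. With no filter on low values, 708 genes were called, 216 higher and 492 lower.

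The genes that rose mostly had little LAP2B in naive cells, and those that fell mostly had much. Of the 4322, 76.4% lay in the quartile with least naive LAP2B, and their median level per kb went from 0.446 to 0.768. Of the 5251 that fell, 64.9% lay in the quartile with most LAP2B, and their median level went from 1.95 to 1.21. These shares hold for the naive order only. With genes ordered by EpiLC LAP2B, calls in both directions were spread over all deciles. Decile 1 held 262 higher and 437 lower, decile 3 held 630 and 393, and decile 10 held 280 and 619. LAP2B itself was called higher at 2893 of the genes that rose, which is 66.9% of these and 39% of all genes called higher for LAP2B. It was called lower at 3873 of the genes that fell, 73.8% of these and 38.0% of all LAP2B falls. Of all genes, LAP2B was called higher at 10.5% and lower at 14.5%. The IGG control was called higher at 24 and lower at 2 of the genes that rose, and lower at 212 of those that fell (0.0753% higher and 0.426% lower of all genes). Across 26570 genes of at least 10 kb, which share libraries within each antibody, the lamin B1 change had a Spearman's rho of 0.887 with the LAP2B change, 0.638 with the IGG change and 0.619 with GC content. The rising genes had a median GC content of 49.9% and the falling genes 41.8%, against 45.3% over all genes tested. Within the quartile of least LAP2B, the median lamin B1 change ran from -0.08 in the AT-richest to 0.51 in the GC-richest quartile of genes, and within the quartile of most LAP2B from -0.37 to -0.24. With log2 values centred within 20 classes of GC content in each library, an alternative chosen after seeing the data, 4977 genes rose and 4387 fell, and the medians of the deciles still ran from 0.35 in the second to -0.33 in decile 10.

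The largest named rises were at genes with little naive LAP2B. The 10 genes below are those with the largest rise among called protein-coding genes of at least 10 kb, and the 10 falls after them were chosen in the same way. Zfr2 (chr10:81068960-81087967, mm39, plus strand), which encodes a zinc finger RNA-binding protein, had a level per kb of 0.270, 0.462 and 0.370 in naive cells and 1.13, 0.830 and 0.982 in EpiLCs. Its lowest EpiLC library stood above its highest naive library, for a change of 1.36 (SE 0.20, adjusted p = 0.000253). Pop5 (chr5:115373409-115383410, plus strand), a protein subunit of RNase P and RNase MRP, had 0.318, 0.445 and 0.453 in naive cells and 1.14, 0.960 and 1.11 in EpiLCs. The change was 1.30 (SE 0.21, adjusted p = 0.000728), again without overlap. The other 8 were Serpinh1 (1.30), a collagen chaperone; Sppl2b (1.28), an intramembrane protease; Josd1 (1.28), a deubiquitinase; Ltbp3 (1.24), which binds latent TGF-beta; Ppp1r14a (1.23), an inhibitor of myosin phosphatase; Sstr5 (1.19), a somatostatin receptor; Epha8 (1.19), an ephrin receptor; and Ttbk1 (1.18), a tau kinase. All 10 lay in the 3 lowest deciles of naive LAP2B, and their IGG changes ran from 0.21 to 0.69 with none called. The lamin B1 change less the IGG change was 0.60 to 1.06 at these 10 genes. None of these differences passed the threshold (limma interaction, adjusted p 0.111 to 0.463).

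The largest named falls were mostly at genes with much naive LAP2B. Pramel7 (chr2:87319431-87327437, minus strand), of the PRAME-like family of leucine-rich repeat proteins and known to promote naive pluripotency, had a level per kb of 3.28, 3.13 and 2.70 in naive cells and 1.24, 1.06 and 1.13 in EpiLCs. The change was -1.36 (SE 0.16, adjusted p = 4.23e-05), with all EpiLC libraries below all naive ones. Or5w22 (chr2:87362140-87363397, plus strand), an olfactory receptor in the same cluster, had 4.99, 3.48 and 3.27 in naive cells and 1.26, 1.60 and 1.17 in EpiLCs, a change of -1.34 (SE 0.25, adjusted p = 0.00150). Of the genes of at least 10 kb, Pramel13 fell by 1.25, Rc3h1 (Roquin-1, which degrades mRNAs of immune regulators) by 1.21, Tlk2 (a chromatin-assembly kinase) by 1.18, Sinhcaf (a subunit of SIN3-HDAC complexes) by 1.17 and Xiap (an inhibitor of caspases) by 1.17. Map2k6, Serpinb9b, Or10ag54, Calr4 and Etfbkmt fell by 1.07 to 1.09. All but Xiap and Tlk2 of these 10 were in the top decile of naive LAP2B. The IGG signal was also called lower at Pramel7 (-1.16), Pramel13 (-0.89), Map2k6 (-0.54) and Calr4 (-0.67). The lamin B1 change less the IGG change was -0.19, -0.36, -0.55 and -0.39 at these 4 genes, and none of these differences passed the threshold (limma interaction, adjusted p 0.175 to 0.861). All 20 of these rises and falls of genes of at least 10 kb, and those of Pramel7 and Or5w22, were called whichever library was left out and on the spike-in scale. With no filter on low values 7 of the 10 rises, Zfr2 among them, and the falls of Or10ag54 and Etfbkmt missed the threshold (adjusted p 0.0541 to 0.103), as did many of the list members named below, such as Gbx2 and Tet2.

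The 250 bases before the annotated gene start (GENCODE vM39 on GRCm39, written 5′ to 3′ along the gene) are shown for the 2 largest named rises and for the fall of Pramel7, with CG dinucleotides in capitals, because base composition moved with the change. They lie at chr10:81068710-81068959 and chr5:115373159-115373408 (plus strand) and at chr2:87327438-87327687 (minus strand).
Zfr2: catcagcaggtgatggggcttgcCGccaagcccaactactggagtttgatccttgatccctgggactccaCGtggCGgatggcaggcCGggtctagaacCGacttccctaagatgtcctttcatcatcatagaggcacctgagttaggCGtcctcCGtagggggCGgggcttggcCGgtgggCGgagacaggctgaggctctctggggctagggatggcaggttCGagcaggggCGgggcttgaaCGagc
Pop5: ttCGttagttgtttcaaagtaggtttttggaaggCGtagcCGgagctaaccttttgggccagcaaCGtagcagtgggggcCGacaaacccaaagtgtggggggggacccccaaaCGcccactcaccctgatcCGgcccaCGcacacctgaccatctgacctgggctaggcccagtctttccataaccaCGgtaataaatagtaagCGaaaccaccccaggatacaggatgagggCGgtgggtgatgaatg
Pramel7: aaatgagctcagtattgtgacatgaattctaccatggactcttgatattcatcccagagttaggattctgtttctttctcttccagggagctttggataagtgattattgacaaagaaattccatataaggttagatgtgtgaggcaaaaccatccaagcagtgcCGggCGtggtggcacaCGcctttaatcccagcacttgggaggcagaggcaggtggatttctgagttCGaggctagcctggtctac
Zfr2 holds 13 CG, Pop5 holds 11 and Pramel7 holds 4. Among 20852 protein-coding promoter windows of this length, 92.3% hold at least 1 CG and 36.5% at least 10 (CG reads the same on both strands). At least 10 were held by 48.0% of promoters of genes that rose and by 40.3% of those that fell. In the quartile of least naive LAP2B, the share was 48.4% among genes that rose and 42.1% among all, and in the quartile of most it was 36.1% among genes that fell and 22.9% among all.

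**Figure D3:**
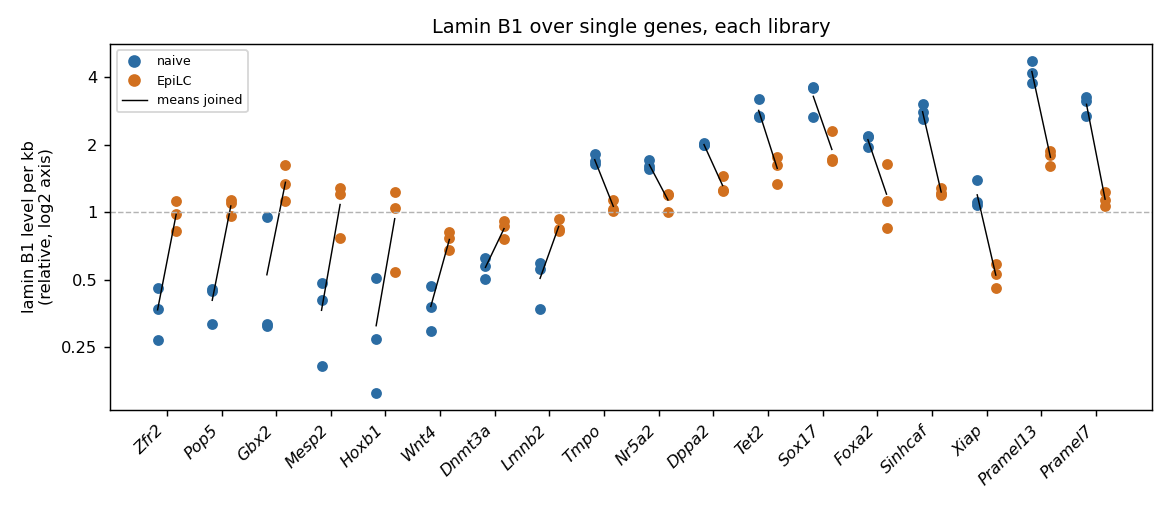
Lamin B1 level per kb (relative, log2 axis; dashed line, the median gene) over 18 named genes in each library, naive left and EpiLC right of each tick, with stage means joined. Zfr2 and Pop5 go from below 0.5 to about the genome median, and Pramel13, with the highest naive levels shown (3.79 to 4.76), goes to between 1.61 and 1.88.

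Calls among genes of pluripotency were few and went both ways. Of 28 naive pluripotency factors tested, 2 rose and 4 fell, with a median change of -0.11 (0.18 on the spike-in scale; IGG median -0.13). These are 7.14% and 14.3% of the list, near the 12.3% higher and 10.9% lower of all protein-coding genes tested. Gbx2, a homeobox factor that supports LIF-independent self-renewal, had 0.318, 0.951 and 0.311 in naive cells and 1.12, 1.34 and 1.63 in EpiLCs, a change of 1.28 (SE 0.30, adjusted p = 0.00812) that missed the threshold without EpiLC library 3 (adjusted p = 0.0560). Tet2, which oxidises 5-methylcytosine, had 3.20, 2.67 and 2.68 in naive cells and 1.33, 1.76 and 1.63 in EpiLCs, a change of -0.86 (SE 0.14, adjusted p = 0.000611). Neither gene's libraries overlapped between stages. Jam2, an adhesion molecule, fell by 0.71, Lifr, the LIF receptor, by 0.66 and Nr5a2, a nuclear receptor that drives Oct4, by 0.52, while Stat3, the effector of LIF, rose by 0.53. The call of Nr5a2 was lost without EpiLC library 1 or 3 (adjusted p up to 0.114) and that of Stat3 without naive library 1 or 3 or EpiLC library 1 or 3 (up to 0.155). The IGG signal was also called lower at Tet2 (-0.50) and Lifr (-0.44), where the lamin B1 change less the IGG change was -0.36 and -0.22 and missed the threshold (limma interaction, adjusted p = 0.442 and 0.648). None of these 4 falls was called on the spike-in scale, where they were -0.22 to -0.56. Spic (-0.47), Zfp57 (-0.50), Prdm14 (-0.32), Dppa3 (-0.49), Klf2 (0.42), Dppa5a (0.37) and Socs3 (0.55) had libraries that did not overlap but missed the threshold (adjusted p 0.0576 to 0.352). Nanog (-0.24), Klf4 (0.36), Esrrb (0.25) and Zfp42 (0.00) also missed it (adjusted p 0.233 to 0.989), and are named outside the rule for choosing genes.

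Of 13 factors shared by both states, 1 rose and 2 fell (7.69% and 15.4%, against 12.3% and 10.9% of protein-coding genes; median -0.19, and 0.07 on the spike-in scale). Lin28a, an RNA-binding inhibitor of let-7, rose by 0.70, and its paralogue Lin28b fell by 0.55. Their naive levels were 0.406 and 1.60 per kb, values that enter the change itself. Dppa2, which primes bivalent promoters, had 2.04, 1.99 and 1.99 in naive cells and 1.25, 1.45 and 1.25 in EpiLCs and fell by 0.60. Of 26 primed epiblast markers, 2 rose and 1 fell (7.69% and 3.85%; median 0.21; IGG median 0.29): the de novo methyltransferase Dnmt3a (0.57), Wnt8a (0.76) and Epha4 (-0.39). Each of these 6 calls was lost without EpiLC library 1 and without EpiLC library 3, and 4 of them also without 1 or more others, with adjusted p up to 0.246. The falls of Dppa2 (-0.30), Lin28b (-0.25) and Epha4 (-0.08) were not called on the spike-in scale. The IGG change of Dppa2 was -0.60, and the lamin B1 change did not differ from it past the threshold (difference 0.00, SE 0.22, limma interaction, adjusted p = 0.999). Otx2 and Fgf5, which mark the primed state, had changes of 0.05 and 0.09 with overlapping libraries. Dnmt3b (0.25), Fgf15 (0.70), Lefty1 (0.48), Lefty2 (0.62) and Cldn6 (0.51) had libraries that did not overlap and adjusted p of 0.0724 to 0.304.

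Signalling and lineage lists held 1 to 9 calls each, to be read against 12.3% higher and 10.9% lower of protein-coding genes (6.14% and 7.46% of all genes). Of 25 targets of FGF-ERK and activin-SMAD signalling, Id3, an inhibitor of bHLH factors, rose by 1.06, and Spred1 and Etv1, an inhibitor and an effector of ERK, fell by 0.72 and 0.58 (list median 0.20; IGG median 0.36). Of 16 Wnt targets, Tcf7 (0.74) and Wnt3a (0.45) rose and none fell (median 0.35). Of 29 mesoderm and gastrulation regulators, 6 rose (20.7%), among them Mesp2 (1.28), Nkx2-5 (0.92) and Meox1 (0.86), and 3 fell, among them Hand2 (-0.71; median 0.28). Of 28 endoderm regulators, 4 rose and 4 fell (median -0.13; 0.16 on the spike-in scale). Sox17, which specifies endoderm, had 3.60, 3.61 and 2.68 in naive cells and 1.70, 2.3 and 1.72 in EpiLCs, a fall of 0.76. Foxa2, a pioneer factor of endoderm, had 2.19, 2.17 and 1.96 and then 0.852, 1.64 and 1.12, a fall of 0.80. Gata4 and Pth1r rose by 0.56 and 0.67, from naive levels of 0.457 and 0.599 per kb, values that enter the change itself. Of 32 neural regulators, 4 rose, Pax2 (0.87) and Dlx1 (0.74) among them, and 1 fell (median 0.10; IGG median 0.24). Of 32 germline genes, 7 rose (21.9%), such as Tex101 (0.84), Majin (0.73) and Tdrd1 (0.67), and 2 fell, including the meiotic cohesin Stag3 (-0.74; median 0.02). Of 16 trophoblast regulators, Tead4 alone was called, lower by 0.50 (median 0.01). Of these named calls, Spred1, Pax2 and Stag3 were kept whichever library was left out; the others were lost without 1 to 5 libraries, most often EpiLC library 1 (adjusted p up to 0.245). No named fall of these lists was called on the spike-in scale.

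Among 36 genes for the nuclear envelope and its chromatin partners, 4 rose and 7 fell (11.1% and 19.4%, against 12.3% and 10.9% of protein-coding genes; median 0.15). The gene of LAP2 itself, Tmpo, had 1.82, 1.65 and 1.69 in naive cells and 1.02, 1.14 and 1.04 in EpiLCs, a fall of 0.68 (SE 0.13, adjusted p = 0.00226) with no overlap. Lmnb1, the gene of lamin B1, named outside the rule, had 1.39, 1.39 and 1.40 and then 0.990, 1.03 and 1.11, a fall of 0.42 (SE 0.13, adjusted p = 0.0338) that was lost without naive library 3 or any EpiLC library (adjusted p up to 0.161). Lmnb2, for the other B-type lamin, had 0.371, 0.595 and 0.557 and then 0.822, 0.932 and 0.839, a rise of 0.75 (SE 0.19, adjusted p = 0.0118). Icmt, which methylates the farnesylated end of lamins, and Lemd2, an inner membrane protein that binds BAF, rose by 0.85 and 0.69. The calls of Lmnb2, Icmt and Lemd2 were lost without 2 to 4 libraries, EpiLC libraries 1 and 3 among them (adjusted p up to 0.215). Neither Tmpo nor Lmnb1 was called on the spike-in scale, with changes of -0.38 and -0.12. Lmna (0.42) and Lbr (0.13) were not called. Of 27 housekeeping genes 7 rose, led by Rplp0 (1.13), Tubb5 (0.96) and Eef2 (0.93), and 2 fell (25.9% and 7.41%; median 0.27), and each of these 3 calls was lost without EpiLC library 1 and without EpiLC library 3 (adjusted p up to 0.207).

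The Pramel, serpin, Speer and immunoglobulin V families had more genes called lower than higher, before and after centring by GC content. Of 57 Pramel genes, 32 fell and none rose (56.1%, against 10.9% of protein-coding genes and 7.46% of all genes). The median Pramel level per kb was 1.79, 1.45 and 1.36 in the naive libraries and 0.968, 1.12 and 1.06 in the EpiLC libraries, so the stages did not overlap, and the median change was -0.58. Of 51 genes of the serpin A and B clusters, which encode protease inhibitors, 21 fell and none rose (41.2% lower, median -0.42), led by Serpina3i at -1.34. Of 17 Speer genes, a testis-expressed family, 9 fell and none rose (52.9% lower, median -0.60). Of 206 immunoglobulin V segments, 31 fell and none rose (median -0.46), with median levels of 3.56, 2.50 and 2.96 and then 1.96, 2.41 and 1.97. After centring by GC content, 20 Pramel, 17 serpin, 8 Speer and 48 immunoglobulin V genes were called lower and the family medians stayed at -0.28 to -0.54. On the spike-in scale these 4 medians were -0.12 to -0.30, with 5 Pramel, 2 serpin and no Speer or immunoglobulin V genes called lower, and the IGG medians were -0.30 to -0.51. Members of a family sit in clusters, the 57 Pramel genes in 10 windows of 1 Mb and the immunoglobulin V segments in 9, so they are not independent of each other.

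The olfactory and vomeronasal receptor families had negative medians on the relative scale, and these came near or above 0 on the spike-in scale and after centring by GC content. Of 1016 class II olfactory receptors, 82 fell and 5 rose (median -0.26). The share lower was 8.07%, against 10.9% of protein-coding genes and 7.46% of all genes. The median was 0.02 on the spike-in scale and 0.04 after centring by GC content, where 12 fell and 14 rose. Of 133 class I olfactory receptors, 15 fell and none rose (median -0.27; 0.02 on the spike-in scale), and 4 fell after centring. Class II levels per kb, as medians, were 2.34, 1.53 and 1.91 in naive cells and 1.44, 1.85 and 1.39 in EpiLCs, so the libraries overlapped. Of 111 vomeronasal type 2 receptors, 20 fell and 1 rose (median -0.30), with 1 lower and 6 higher after centring, and of 149 type 1 receptors 6 fell (4.03%; median -0.16; 0.13 on the spike-in scale). The IGG medians were -0.29 for class I and -0.23 for class II olfactory receptors. They were -0.13 for type 1 and -0.30 for type 2 vomeronasal receptors. The lamin B1 change less the IGG change had medians of -0.003 to 0.014 in these families. Killer cell lectin-like receptors fell at 11 of 27 (median -0.42, IGG median -0.35), and 1 was lower after centring. The 51 very long neuronal genes, which encode synaptic adhesion molecules and channels, had a median of -0.34 with 4 lower, such as Kcnip4 (-0.72) and Grm7 (-0.63), and 1 higher, Fstl4 (0.59). Their median was -0.03 both on the spike-in scale and after centring, and after centring 18 of the 51 were called lower and 9 higher. Their IGG median was -0.25. Of 16 formyl peptide and trace amine receptors, Fpr1 alone was called, lower by 0.58 (median -0.26, and -0.17 after centring). The calls of Kcnip4, Grm7, Fstl4 and Fpr1 were lost without 1 to 4 libraries (adjusted p up to 0.217), EpiLC library 1 among them each time. The IGG signal was also called lower at Kcnip4 (-0.50) and Grm7 (-0.47), and the differences of -0.22 and -0.15 from it missed the threshold (limma interaction, adjusted p = 0.721 and 0.827).

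Other families had positive medians. All 5 called Hox genes of 39 were higher (12.8%; median 0.42, 38 of 39 positive; IGG median 0.30), led by Hoxb1 with 0.509, 0.272 and 0.156 in naive cells and 0.539, 1.04 and 1.23 in EpiLCs. Of 19 Wnt ligands 8 rose and none fell (42.1% higher; median 0.41; IGG median 0.16). Wnt4 had 0.376, 0.469 and 0.296 in naive cells and 0.770, 0.682 and 0.818 in EpiLCs, a change of 0.97 (SE 0.19, adjusted p = 0.00208). Of 26 kallikreins, serine proteases in 1 window of 1 Mb, 3 rose (11.5%; median 0.51), and the family's IGG median was -0.03. Of 80 ribosomal protein genes 8 rose and none fell (median 0.25; IGG median 0.29). The Hox, kallikrein and ribosomal protein shares lay near the 12.3% higher of all protein-coding genes. None of the Hox, Wnt, kallikrein and ribosomal protein genes tested was called lower, and the 4 medians stayed positive on the spike-in scale (0.51 to 0.77) and after centring by GC content (0.20 to 0.35). The call of Hoxb1 was lost without EpiLC library 3 or naive library 3 (adjusted p up to 0.0824). The 39 Hox genes sit in 4 windows of 1 Mb, so they are not independent of each other. The lamin B1 change less the IGG change had medians of 0.08 (Hox), 0.28 (Wnt), 0.48 (kallikrein) and -0.04 (ribosomal protein).

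**Figure D4:**
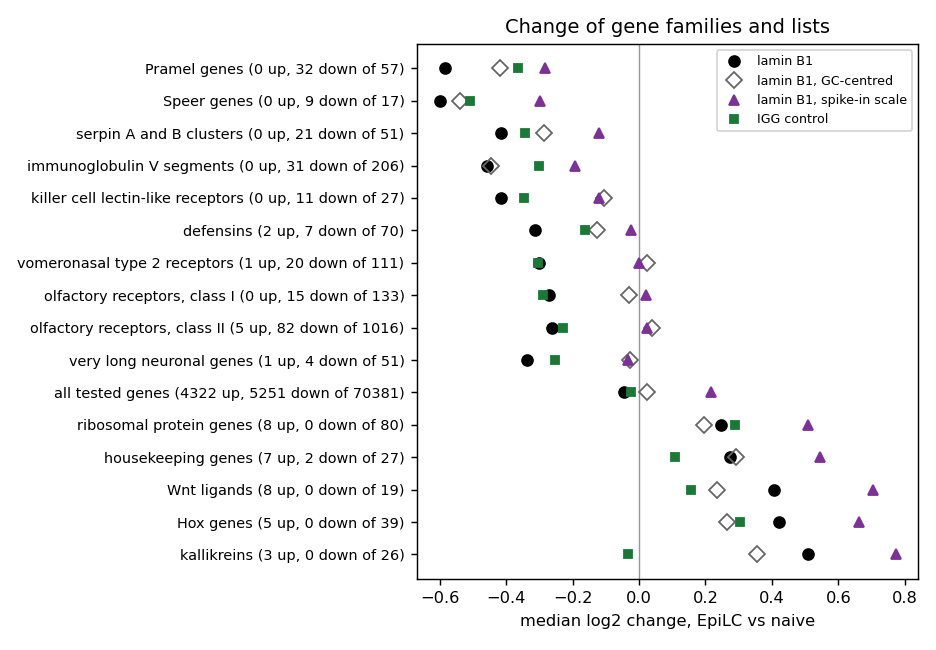
Median log2 change (EpiLC over naive) of gene families and lists for lamin B1, for lamin B1 centred by GC content, for lamin B1 on the spike-in scale and for the IGG control, with the number of genes called in brackets. Pramel and Speer genes keep medians below -0.28 on every lamin B1 scale, while the medians of both olfactory receptor classes come to -0.03 and 0.04 after centring and to 0.02 on the spike-in scale.

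By biotype, the median change was 0.01 for 20856 protein-coding genes, with 2564 higher and 2278 lower (12.3% and 10.9%). It was -0.04 for 31493 lncRNAs, with 1553 higher and 2316 lower (4.93% and 7.35%). For 7365 processed pseudogenes it was -0.10, with 64 higher and 190 lower (0.869% and 2.58%). Over all genes the shares were 6.14% and 7.46%. The lncRNA and pseudogene medians were 0.23 and 0.13 on the spike-in scale. Genes on the X chromosome had a median of -0.17 (15 higher, 173 lower of 2144; 0.10 on the spike-in scale), and the share called lower, 8.07%, was near the 7.46% of all genes. The 932 genes tested on the Y chromosome had a median level per kb of 0.477, 0.392 and 0.374 in naive cells and 0.290, 0.305 and 0.263 in EpiLCs, with 136 lower and none higher (14.6% lower, against 7.46% of all genes; median -0.42; IGG median -0.20). On the spike-in scale 2 were higher and 5 lower (median -0.19), and after centring by GC content 3 were higher and 12 lower (median -0.18). The study's methods report loss of the Y chromosome in part of the cells, and the share of such cells at each stage was not measured, so fewer copies and less contact cannot be told apart there.

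Of 2310 windows of 1 Mb with at least 5 tested genes of at least 2 kb, the window medians of the stages did not overlap in 474 with EpiLCs higher and 738 with EpiLCs lower. No gene was called in 621 windows, 61 held calls both ways, and most genes were called lower in 112 and higher in 31. The lowest median was at chr6:148000001-149000000, where 21 of 24 genes fell and none rose (-0.83), among them Sinhcaf. Its median level was 3.25, 2.48 and 2.64 in naive cells and 1.56, 1.73 and 1.58 in EpiLCs. The next were chr5:50000001-51000000 (11 of 13 lower, -0.82), around Adgra3, and chr2:87000001-88000000 (27 of 41 lower, -0.80), the olfactory receptor cluster that holds Pramel7. The highest medians were at chr17:25000001-26000000 (32 of 52 higher, 0.79), with Sstr5 and Sox8, chr2:30000001-31000000 (31 of 45, 0.77) and chr17:27000001-28000000 (32 of 43, 0.77), with Nkx2-5, Lemd2 and Grm4. In chr17:25000001-26000000 the median level was 0.291, 0.416 and 0.407 in naive cells and 0.700, 0.602 and 0.673 in EpiLCs. The IGG medians of these 6 windows were -0.18, -0.61, -0.61, 0.16, 0.19 and 0.17 in the order given.

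The lamin B1 change was also set against that of the IGG control. It differed at 20 genes, 3 in the direction of more and 17 of less lamin B1 (limma interaction, adjusted p under 0.05; 0.0284% of genes, 0.00426% more and 0.0242% less, 7625 at an unadjusted p under 0.05). Sinhcaf fell in lamin B1, from 2.80, 2.60 and 3.03 to 1.28, 1.20 and 1.22, while its IGG change was 0.17 (difference -1.34, SE 0.19, adjusted p = 0.00138). It was the 1 named call that held whichever of the 12 libraries was left out. On the spike-in scale no gene was called, Sinhcaf included, and with the replicate block 2 were. Rsbn1l, Naf1 (an assembly factor of H/ACA ribonucleoproteins), Utp18 (a ribosome biogenesis factor) and Xiap had differences of -1.03 to -1.15 (adjusted p 0.0156 to 0.0378). Grm4, a glutamate receptor, rose from 0.247, 0.386 and 0.372 to 0.740, 0.669 and 0.679, with a difference of 1.00 (adjusted p = 0.0393), and Fam222a had one of 0.97 (adjusted p = 0.0448). These 6 calls were lost without 5 to 9 of the 12 libraries in turn (adjusted p up to 0.227), and the count of 20 ranged from 1 to 389. With each library left out, it was 389 without naive lamin B1 library 2, 31 without EpiLC IGG library 1 and 5 or fewer without lamin B1 naive library 1 or 3, EpiLC library 1 or 3, or any of the other 5 IGG libraries. Against LAP2B, no gene differed by limma at adjusted p under 0.05, with 2713 at an unadjusted p under 0.05.

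Few TE families were called. A family value is a mean over many copies, so the main scale was that of the median family and not of genes. Of 1102 families, 8 fell and none rose (0.726%; 153 at an unadjusted p under 0.05), on a scale where the median family of each library is 1. With families divided by the library's median gene instead, 6 fell and none rose, 3 of them among these 8. On that scale the median change over all families was -0.21. The libraries did not overlap at 9.07% with EpiLCs higher and 8.98% lower. Of the 8, 7 were RLTR13 long terminal repeats of the ERVK class of endogenous retroviruses, and the other was UCON94, an old repeat with 12 copies. RLTR13B2 (312 copies) had 2.08, 2.51 and 2.14 per copy in naive cells and 1.61, 1.62 and 1.62 in EpiLCs, a change of -0.45 (SE 0.07, adjusted p = 0.0440). RLTR13D4 had 1.90, 1.82 and 1.80 and then 1.46, 1.48 and 1.45, a change of -0.31 (SE 0.03, adjusted p = 0.0178). RLTR13B1 fell by 0.36, and RLTR13C2, RLTR13C1, RLTR13B4 and RLTR13D5 by 0.20 to 0.24. All EpiLC libraries lay below all naive libraries in 15 of the 22 RLTR13 families, whose median change was -0.16 (0.01 over all families). The IGG change was negative in 18 and the LAP2B change in 20 of the 22, with 2 and 12 called lower (LAP2B was called at 4.63% of all families and lower at 3.18%, the IGG control lower at 0.181%). None of the 7 calls was kept on the spike-in scale (adjusted p = 1.00), with the median over copies or with the replicate block. With families divided by the median gene, RLTR13B2, RLTR13B1 and RLTR13D4 stayed called (limma, adjusted p 0.000496 to 0.0119) and the others did not. On the main scale each of the 7 calls was lost without naive library 1 or 3 or any EpiLC library (adjusted p up to 0.204). With naive library 2 left out 12 families were lower and 5 higher. RLTR13 copies are similar in sequence and reads can be shared between them, so the families are not independent.

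**Figure D5:**
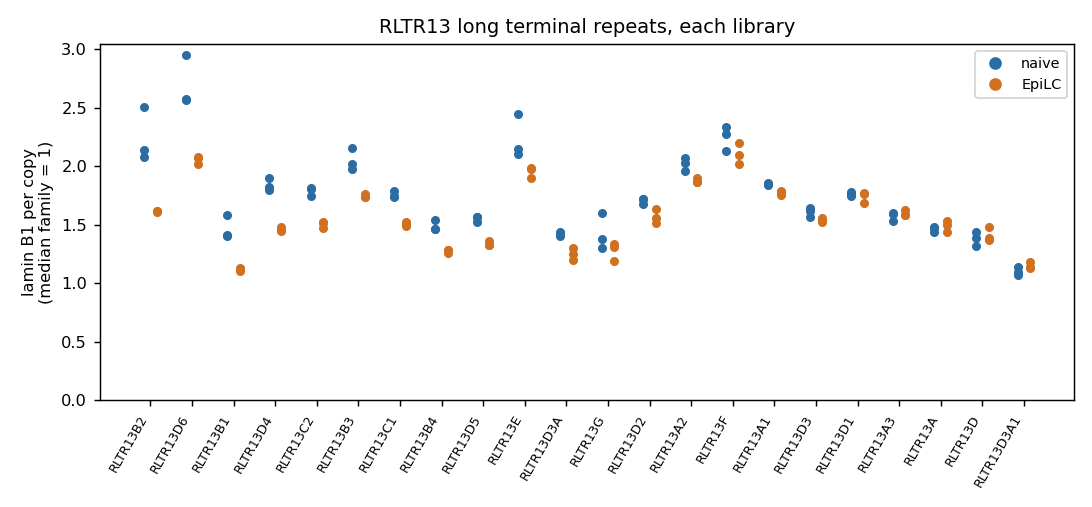
Lamin B1 per copy (library median family = 1) of the 22 RLTR13 families in each library, ordered by their change. The 6 values of a family are 3 naive and 3 EpiLC libraries; 15 families have all EpiLC libraries below all naive ones, from RLTR13B2 (-0.45) on the left.

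Young and abundant families did not pass the test on the scale of the median family. The families below were picked after their values were seen, as those best known in mES cells. The major satellite of pericentromeres, GSAT_MM, had 402.9, 562.2 and 535.7 times the median family per copy in naive cells and 1115, 784.9 and 876.8 in EpiLCs, over 51 annotated copies. The libraries did not overlap, but the change of 0.89 (SE 0.20) missed the threshold (adjusted p = 0.126), and the IGG change was 0.34. GSAT_MM took 23.8 to 29.6% of the summed family means in naive libraries and 36.7 to 43.8% in EpiLCs, and with families divided by the library mean 1061 of them were called lower and 3 higher, among the latter GSAT_MM (0.54, adjusted p = 0.000563) and SYNREP_MM (0.33, adjusted p = 0.0233). SYNREP_MM, another satellite, had 93.3 to 112.7 in naive cells and 152.9 to 204.6 in EpiLCs (0.68, adjusted p = 0.184). The L1MdTf families of young LINE elements changed by 0.13 to 0.16, IAPEz-int, the intracisternal A particle, by 0.23 and MERVL-int by 0.10 (adjusted p 0.389 to 0.509). By class, the median change was 0.00 for LTR, 0.06 for SINE and 0.01 for DNA elements. No TE family differed from its IGG or LAP2B change by limma at adjusted p under 0.05, with 59 and 58 at an unadjusted p under 0.05.

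The mean lamin B1 value over genes on the spike-in scale did not separate the stages. The deposited values are scaled by each library's reads (RPKM) and by the spike-in. So this mean is not a total of released DNA. In log2 the mean was 3.19, 3.19 and 3.52 in naive cells and 3.44, 3.19 and 3.62 in EpiLCs. The libraries overlapped (difference 0.12, two-sided exact permutation p = 0.5). The same mean of the IGG control was 0.83 to 1.44 in naive cells and 1.62 to 3.00 in EpiLCs, without overlap (exact permutation p = 0.1, the smallest possible).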

How the data were processed

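Lamin B1 CUT&RUN was read in 3 naive and 3 EpiLC libraries of WT cells, with 6 IGG and 6 LAP2B libraries for comparison. The authors aligned reads to mm39 and to the yeast genome sacCer3 with Bowtie2 2.3.5.1, used SAMtools 1.10 and deepTools, and deposited signal per gene or TE copy: RPKM in bins (1 kb for genes; the methods state 10 kb for TEs) multiplied by a yeast spike-in factor and summed over the feature. They masked blacklisted regions in the gene tables but not in the TE tables. The sequencer of the lamin B1 and IGG libraries is not given in the sources used here, and the study's methods name the Illumina NovaSeq X Plus for LAP2B. All values lay within 0.05 of a whole multiple of 1 read, which gave the read totals; intervals on such counts cover counting error only.

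Each gene value was divided by the library median and tested as log2(value + 0.1) with limma 3.58.1 (R 4.3.3; eBayes with trend, Benjamini-Hochberg over all features tested, adjusted p under 0.05), so folds of low genes are understated. The lowest 10% of features by mean were left out. For genes the mean was over all lamin B1, IGG and LAP2B libraries, knockout LAP2B libraries included, and for TE families over WT libraries only. TE families were means over copies divided by the median family. Genes were named by rule: the 10 largest rises and falls among called protein-coding genes of at least 10 kb, 1 per family and 1 Mb window; up to 4 called members of each list, and for naive and primed lists every member whose libraries did not overlap; and the extreme called member of each family. A few items that the rule selects are not reported here. Members and lists were chosen with earlier results of these data known. The labels do not say whether replicate numbers pair the samples. Same-numbered libraries had correlations of deviations of -0.16, -0.26 and 0.00. With so few libraries per stage these values cannot decide it. Alternatives were the spike-in and mean scales, other pseudocounts, no filter, the replicate block, edgeR 4.0.16 on recovered reads, leaving out each library and, added after seeing the data, centring by GC content. For TE families, division by the median gene and the median over copies were also used. Coordinates of genes are from GENCODE vM39 on GRCm39, which matched 78131 of 78202 genes.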

Additional observations from a re-analysis of the deposited data

How the results depend on the processing

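For genes, the count of 9573 was 5786 on the spike-in scale, 708 with no filter, 5814 with the replicate block, and 1813 to 14141 with 1 library left out (1805 of the 9573 were still called without EpiLC library 1, 2981 without EpiLC library 3 and 5351 without naive library 1). It was 9541 with edgeR, 8290 without chromosomes 6, 8, X and Y, and 9364 centred by GC content, a setting chosen after seeing the data, of which 6743 were among the 9573. For TE families the count of 8 was 0 on the spike-in scale, 1064 relative to the library mean, 6 relative to the median gene, 1 with the median over copies, 1 with the replicate block, and 0 to 17 with 1 library left out. For lamin B1 against IGG the 20 genes became 0 on the spike-in scale, 37 with a pseudocount of 0.5, 2 with the replicate block, and 1 to 389 with 1 library left out. The lamina contrast difference of -0.72 was -0.14 with EpiLC classes and -0.82 to -0.56 with 1 library left out, and under the replicate block the exact permutation p was 0.25, the smallest 3 pairs allow. The level difference of 0.12 was 0.40 over TE families and 0.01 to 0.23 with 1 library left out. Apart from the construction of each setting, the cause was not tested. Of 109 named genes with a call none reversed, 96 lost their call under at least 1 setting and 70 with a library left out. All 8 TE families lost theirs with a library left out. Whether replicate numbers pair the samples is not known. The block ended 21 of the 109 calls, those of all 8 TE families and 6 of 7 named against IGG. The median gene held 76 to 90 reads.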

Other observations

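Beside the named families, chromosomes 11 and 15 had median lamin B1 changes of 0.11 (428 genes higher, 253 lower of 4275) and 0.13 (268 higher, 96 lower of 2638). Called higher and lower were 10.01% and 5.92% on chromosome 11 and 10.16% and 3.64% on chromosome 15. Over all genes these shares were 6.14% and 7.46%. Chromosomes 4, 17 and 19 also had positive medians, of 0.07, 0.06 and 0.06. There 11.4%, 12.3% and 9.67% of genes were called higher and 7.14%, 5.52% and 4.49% lower. Other families held calls in both directions. Cyp2, Cyp3 and Cyp4 cytochrome P450 genes had 6 higher and 6 lower of 78, Fox factors 4 and 8 of 45, Sox factors 3 and 1 of 19, Zfp genes 33 and 39 of 378, and microRNA genes 20 and 13 of 926. The shares higher and lower were 7.69% each for the cytochrome P450 genes, 8.89% and 17.8% for Fox factors, and 15.8% and 5.26% for Sox factors. They were 8.73% and 10.3% for Zfp genes, against 12.3% and 10.9% of protein-coding genes. For microRNA genes they were 2.16% and 1.40%, against 6.14% and 7.46% of all genes. After centring by GC content 10 P450 genes were higher and 2 lower, 39 and 23 of the Zfp genes, 3 and 11 of the Fox factors, 3 and 2 of the Sox factors, and 6 and 24 of the microRNA genes. Single extremes of these groups were Sox8 (1.16), Foxb2 (-1.02) and Zfp1001 (-0.97), and of microRNA genes Mir6998 (0.94) and Mir99b (-1.22). The calls of Sox8, Foxb2 and Mir6998 were lost without 1 to 4 libraries (adjusted p up to 0.197), EpiLC library 1 among them.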
